A study of Mus musculus with 8 samples.

Results

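Collagens are the main structural proteins of the extracellular matrix, and this account follows the genes of their chains in molar mesenchyme with and without an Osr2-driven deletion of Ezh2. The members are the genes whose symbol is built as Col, a number, a and a number, leaving out the 6 chains known mainly from cartilage (Col2a1, Col9a1, Col9a2, Col9a3, Col11a1 and Col11a2). They number 38 of the 20926 genes in the table of expression values. By the kind of assembly they form, 8 are fibrillar, 8 belong to basement membranes, 6 are FACIT chains (fibril-associated collagens with interrupted triple helices) and 16 are of other types.

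Molars were taken from mice at postnatal (PN) day 3, the epithelium was removed, and RNA was isolated from the mesenchyme that remained. The 4 control samples carried Ezh2fl/fl, that is, Ezh2 with sites for Cre recombinase, and the 4 other samples were Osr2KI-Cre;Ezh2fl/fl, here written Osr2-Cre;Ezh2fl/fl, so that both groups carried the floxed gene and differed in the Cre allele. The Cre is driven from Osr2, a gene of the tooth mesenchyme and jaw bone, so that epithelium, vessels and other cells in the dissected tissue need not have been targeted. The strain is C57BL/6 in the labels, whereas the methods of the study describe a mixed background, and sex is not given. Per the methods there were 3 sample pairs in the sequencing, although n is 4, and the libraries that formed them are not given in the sources used here. Nothing in the labels says whether each sample came from 1 mouse or a pool, so that p-values measure the spread between these samples only.

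Each collagen molecule is a triple helix of 3 chains, made of 1 chain type or of several that must be produced together. The chains are hydroxylated and glycosylated in the endoplasmic reticulum (ER), trimmed outside the cell and crosslinked by lysyl oxidases. Type I collagen is the bulk of dentin, bone and the dental papilla's fibrils, type IV forms the sheet under epithelium and around vessels, and FACIT chains sit on the surface of fibrils. Ezh2 is the enzyme of Polycomb repressive complex 2 that trimethylates histone H3 at lysine 27, a mark that in vertebrates is found mainly at promoters rich in the dinucleotide CpG.

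Some promoters are printed here for the members on which the comparisons turn, from RefSeq's promoter table for GRCm38.p6, of the same build (mm10) as the data. The first stretch is shown because Col4a1 and Col4a2, the chains of the common type IV molecule, start from opposite strands of 1 promoter, and their first exons overlap by 22 bases. The capitals in it mark the first base of Col4a2 (plus strand, at 11312805) and the first base of Col4a1 (minus strand, at 11312826). The other stretches hold 100 bases upstream of the outermost start in GENCODE or RefSeq, with each CpG in capitals, for Col16a1 and Col8a1, whose values separated the groups, and for Col4a5 and Col4a6, the other head-to-head pair of type IV genes, whose GENCODE starts leave 1308 bases between them. The stretch ends at the GENCODE start in Col8a1 and 23, 15 and 19 bases before it in Col16a1, Col4a5 and Col4a6, and that of Col16a1 overlaps a GENCODE exon of Gm12963.
Col4a2/Col4a1 shared start, chr8:11312801-11312830, plus strand: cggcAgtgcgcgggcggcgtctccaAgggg
Col16a1, chr4:130047717-130047816, plus strand: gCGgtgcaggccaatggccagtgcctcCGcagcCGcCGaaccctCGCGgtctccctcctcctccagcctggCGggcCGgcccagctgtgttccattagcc
Col8a1, chr16:57754738-57754837, minus strand: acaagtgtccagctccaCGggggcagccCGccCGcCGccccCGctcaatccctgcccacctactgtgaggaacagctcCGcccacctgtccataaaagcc
Col4a6, chrX:141474096-141474195, minus strand: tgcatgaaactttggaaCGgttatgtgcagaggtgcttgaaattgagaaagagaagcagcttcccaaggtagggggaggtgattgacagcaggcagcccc
Col4a5, chrX:141475270-141475369, plus strand: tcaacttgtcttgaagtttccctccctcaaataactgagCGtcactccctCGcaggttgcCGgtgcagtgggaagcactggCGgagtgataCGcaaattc

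The stretches differ in CpG content: 8 in that of Col16a1, 6 in that of Col8a1, 5 in that of Col4a5 and 1 in that of Col4a6. Over windows from 250 bases before to 50 bases after the start, 31 of the 38 members had an entry in the table, with a median of 12 CpG and a range from 0 to 37. All 32851 windows of the table had a median of 7. The highest counts were those of Col4a1 (37), Col5a1 (34), Col4a2 (33) and Col8a2 (32), and Col3a1 and Col28a1 had 0. The windows of Col4a1 and Col4a2 overlap and are not independent.

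Expression is given as the deposited normalized value, whose 75th percentile is nearly the same in each library and which shows no factor for gene length. Levels are compared between genes only after division by kb of exon. Estimated depth was between 48.3 M and 68.8 M reads per library. The targeted gene Ezh2 stood at 55.0, 38.3, 39.6 and 39.0 in the controls, given here and below in the order of libraries 1 to 4, and at 35.2, 30.1, 23.2 and 36.0 in the Osr2-Cre;Ezh2fl/fl libraries. All 4 of the latter lay below all 4 controls, with an adjusted p of 0.235 in limma. These values also count RNA from cells that were not targeted, so they do not measure the deletion in the mesenchyme alone. By immunofluorescence the study found no detectable Ezh2 protein in molar mesenchyme of newborn Osr2-Cre;Ezh2fl/fl mice.

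Some libraries stood apart. Summed over 6 ameloblast markers (Amelx, Ambn, Enam, Amtn, Klk4 and Mmp20), the value was 15720 and 28535 in control libraries 3 and 4 and 11435 in Osr2-Cre;Ezh2fl/fl library 3, against 697 to 2375 in the other 5. Markers of epithelium (Krt5, Krt14, Krt15, Krt17, Epcam, Cdh1 and Trp63) summed to 2036 to 4524 in controls and 1924 to 2718 in Osr2-Cre;Ezh2fl/fl libraries, so the samples labelled as mesenchyme also held epithelial RNA. Dental mesenchyme markers (Msx1, Msx2, Pax9, Lhx6, Lhx8, Barx1, Dlx1 and Dlx2) were present in every library, at 793 to 949 in controls and 734 to 891 in the others. Xist and the Y-linked Ddx3y were both present in 4 of the 8 libraries (control libraries 1, 3 and 4 and Osr2-Cre;Ezh2fl/fl library 4). Control library 2 and Osr2-Cre;Ezh2fl/fl library 1 had Ddx3y, with Xist at 0.373 and 0.414. Osr2-Cre;Ezh2fl/fl libraries 2 and 3 had Xist, with Ddx3y at 0.0455 and 0.0424, and no control was of this kind. The part of sex in the differences was not tested beyond a fit with Xist as a covariate.

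Together the 38 genes made up 2.35, 2.56, 2.22 and 2.14% of the summed values in the controls and 1.91, 2.56, 1.79 and 2.11% in the Osr2-Cre;Ezh2fl/fl libraries, and the groups overlapped. The fibrillar chains alone held 1.70% ± 0.156 in controls and 1.51% ± 0.226 in Osr2-Cre;Ezh2fl/fl libraries (SD, n = 4 each). Most of this came from Col1a1, Col1a2 and Col3a1, which together held 1.50% ± 0.141 and 1.32% ± 0.208.

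Per kb of exon, the levels spanned over 4 orders of magnitude. The highest was Col1a1, with means of 1166 in controls and 1013 in Osr2-Cre;Ezh2fl/fl molars, and the lowest was Col6a6, with 0.0243 and 0.0213. Each kind of assembly was led by chains known from many connective tissues: Col1a1 and Col1a2 (341 and 278 per kb) among the fibrillar, Col4a1 (91.3 and 65.6) and Col4a2 (67.7 and 49.9) among the basement membrane, and Col12a1 (70.8 and 62.9) and Col16a1 (31.5 and 58.9) among the FACIT chains. Among the other types Col6a1 led (69.0 and 79.2). By the mean over all 8 libraries Col23a1 came next (62.4 and 57.5), but Col17a1 (64.2 and 52.1) was above it in controls, and Col6a2 (58.8 and 60.5) and Col8a2 (42.1 and 58.5) were above it in Osr2-Cre;Ezh2fl/fl molars. These means lay within the range of the 8 Col23a1 libraries.

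**Figure D1:**
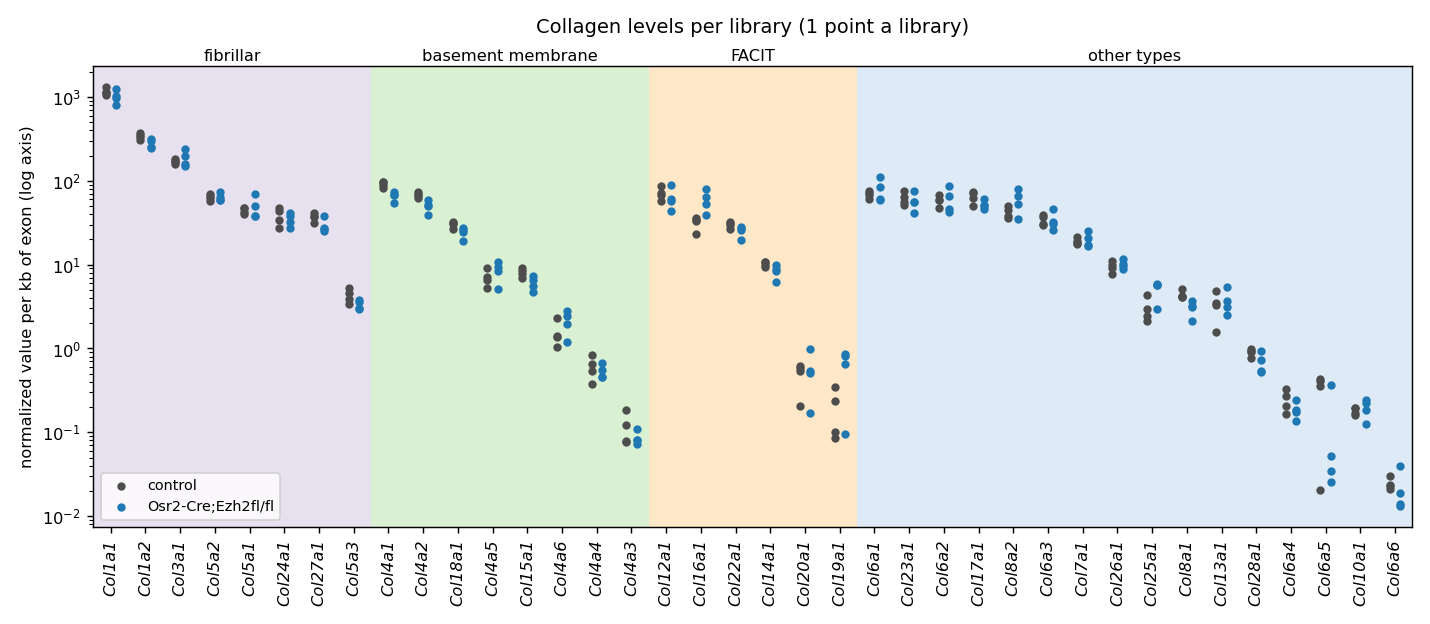
Normalized value per kb of exon (vertical log axis) of each of the 38 collagen genes in each library, grouped by kind of assembly and ordered by mean level; each point is 1 library. Col1a1 stands highest, with group means of 1166 and 1013 per kb, and Col6a6 lowest, with 0.0243 and 0.0213.

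The comparison of Osr2-Cre;Ezh2fl/fl with control molars asks which collagens differ with the Osr2-driven deletion of Ezh2. No group carried the Cre allele with an intact Ezh2, so an effect of that allele cannot be told apart from the deletion. With limma on log2(value + 1), 35 of the 38 members had high enough values to be tested (at least 1 in at least 4 libraries), among 14854 genes in all. None had an adjusted p under 0.05 in limma, where 2.07% of all genes tested passed, 1.56% as higher and 0.512% as lower. None had one in limma voom either, beside 1.44% of all genes as higher and 0.471% as lower. At an unadjusted p under 0.05, 3 members were higher (Col16a1, Col19a1 and Col25a1) and 9 were lower (Col4a1, Col4a2, Col8a1, Col15a1, Col18a1, Col5a3, Col27a1, Col14a1 and Col28a1). That is 8.57% higher and 25.7% lower, beside 8.27% and 4.87% of all genes tested, or 34.3% in either direction beside 13.1%. The limma voom fit gave 2 higher and 10 lower, beside 7.73% and 4.98% of all genes.

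The log2 fold change was below 0 in 21 of the 35 members, 60.0% of them, beside 45.9% of all genes tested. Its median was -0.12 over the members and 0.01 over all genes. Over the members it was -0.0085 without Osr2-Cre;Ezh2fl/fl library 1 and -0.21 with the ameloblast transcripts as a covariate. In 4 members the 4 Osr2-Cre;Ezh2fl/fl libraries all lay to 1 side of the 4 controls. Col16a1 was higher, and Col4a1, Col4a2 and Col8a1 were lower, beside 5.76% and 2.77% of all genes tested and 8.53% in either direction.

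**Figure D2:**
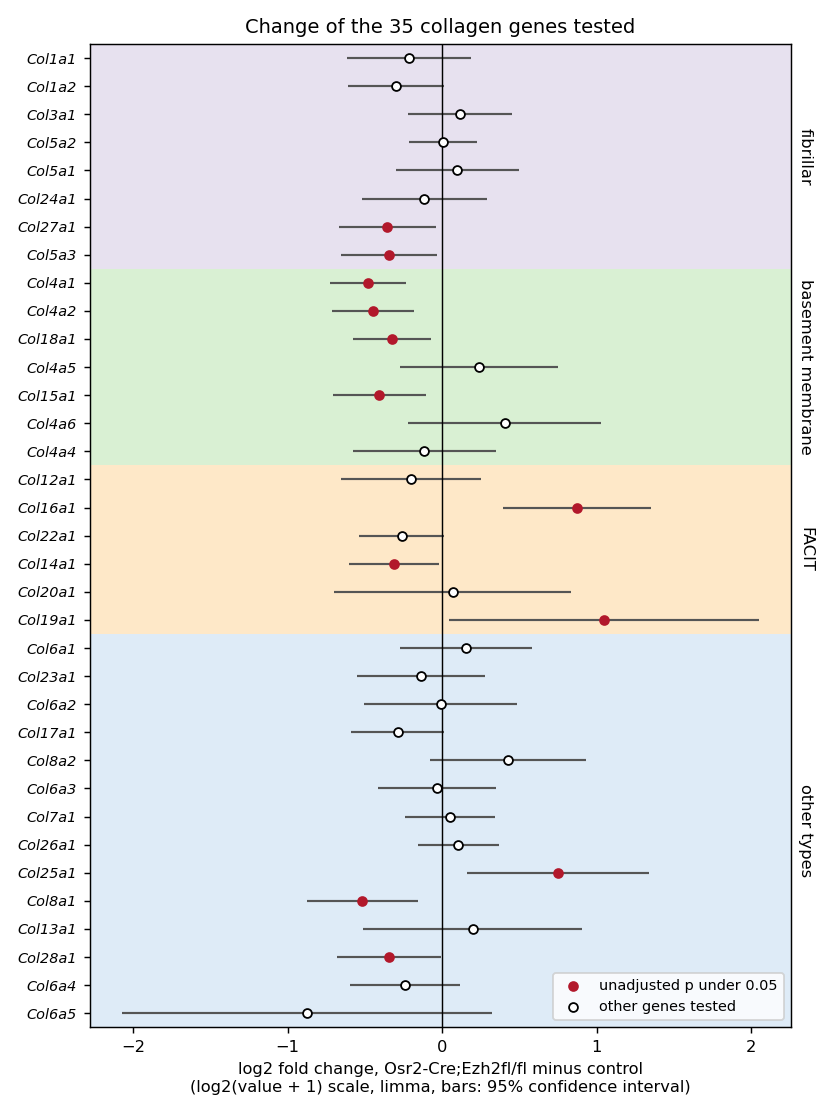
Log2 fold change of the 35 collagen genes tested, Osr2-Cre;Ezh2fl/fl minus control on the log2(value + 1) scale, with the 95% confidence interval from limma; filled points have an unadjusted p under 0.05. The 9 filled points left of 0 include 4 basement membrane chains, and the 3 right of 0 are Col16a1, Col19a1 and Col25a1.

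Counts of this size depended on single libraries. Without Osr2-Cre;Ezh2fl/fl library 1, 2 members passed the adjusted threshold, Col16a1 and Col19a1, beside 1.98% of all genes as higher and 0.624% as lower in that fit. At an unadjusted p under 0.05, 6 were then higher and 7 lower, beside 9.23% and 5.34% of all genes. Without control library 2, the 9 lower members became 4, beside 3.63% of all genes. Leaving out the 3 libraries rich in ameloblast transcripts, control libraries 3 and 4 and Osr2-Cre;Ezh2fl/fl library 3, was a choice made after seeing the data. In this smaller fit none was higher and 6 were lower at an unadjusted p under 0.05, beside 4.10% and 2.92% of all genes. The 6 include Col4a3 (log2 fold change -0.42, unadjusted p = 0.0427), which was near the floor and not tested in the main fit. Over all genes, 8 passed the adjusted threshold as higher and 0 as lower, against 232 and 76 in the main fit. With the level of the ameloblast transcripts as a covariate 1 member was higher and 7 were lower, beside 8.31% and 6.11%. Of the 12 members with an unadjusted p under 0.05, 5 kept it whichever library was left out (Col4a1, Col4a2, Col15a1, Col16a1 and Col8a1), 7 lost it without at least 1 library, and 8 other members reached it without 1 library. Of the 23 members with an unadjusted p of 0.05 or above, 21 had a log2 fold change that moved by over 1.5 times when some single library was left out. The part of epithelial RNA in the differences was not tested beyond these fits.

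**Figure D3:**
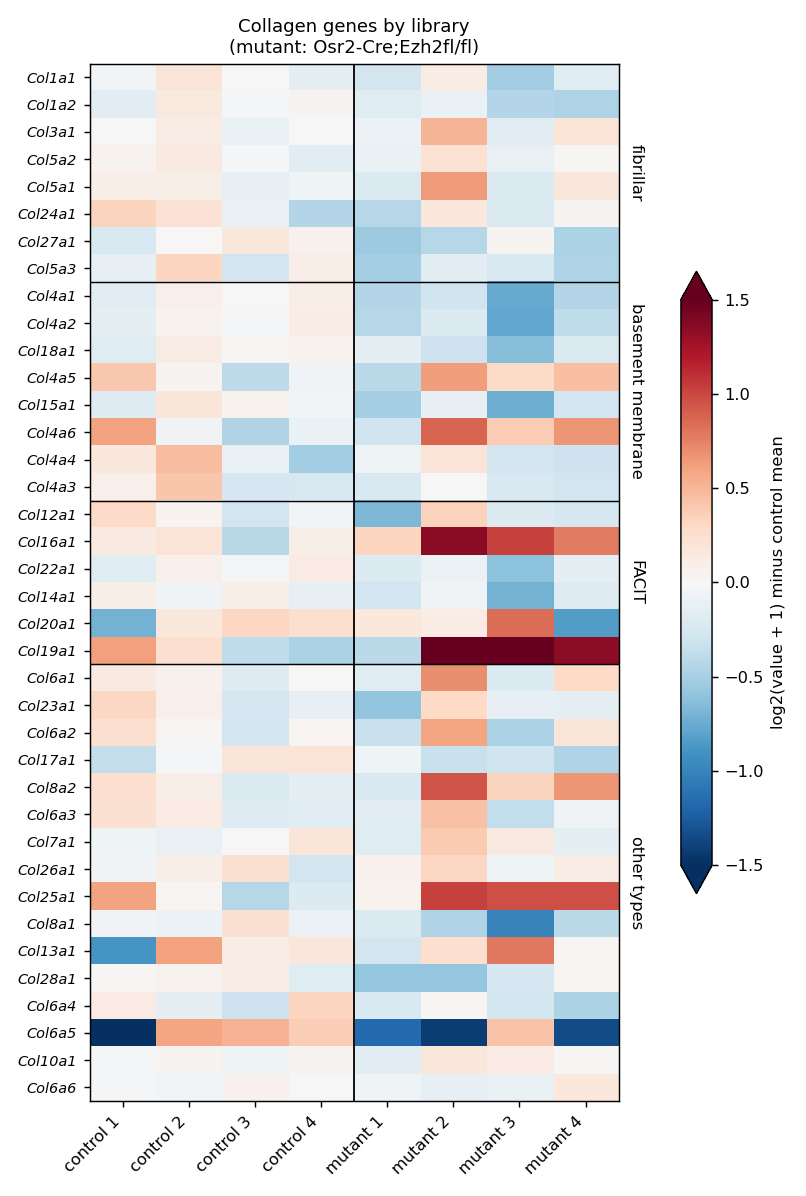
Log2(value + 1) minus the control mean for each of the 38 collagen genes (rows, by kind of assembly and level) in each library (columns); red is above and blue below the control mean. Col4a1, Col4a2 and Col8a1 are blue in all 4 Osr2-Cre;Ezh2fl/fl libraries, Col16a1 is red in all 4, and library 1 of this group lacks the red of the other 3 in Col19a1 and Col25a1.

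The counts in each kind of assembly and in the marker lists stand beside the same 8.27% of all genes as higher and 4.87% as lower at an unadjusted p under 0.05. The fibrillar chains build the load-bearing fibrils. Of the 8, all were tested, none was higher and 2 were lower at an unadjusted p under 0.05, with a median log2 fold change of -0.17. Col1a1, which makes the main chain of type I collagen (chr11:94936224-94953042, plus strand), stood at 7383, 8735, 7569 and 6930 in the controls and 6320, 8245, 5299 and 6732 in the Osr2-Cre;Ezh2fl/fl libraries. The groups overlapped, and the log2 fold change of -0.22 (SE 0.18) had an unadjusted p of 0.256, becoming -0.11 without Osr2-Cre;Ezh2fl/fl library 3 and -0.33 without library 2. Its partner Col1a2 (chr6:4504814-4541544, plus strand) had 3778, 4688, 4151 and 4336 in controls and 3713, 3941, 3121 and 3065 in Osr2-Cre;Ezh2fl/fl libraries, a log2 fold change of -0.30 (SE 0.14, unadjusted p = 0.0589), and only the lowest control lay within the range of the other group.

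Col3a1, whose type III collagen shares fibrils with type I in soft tissue, averaged 1674 ± 101 in controls and 1843 ± 405 in Osr2-Cre;Ezh2fl/fl molars (SD over 4 libraries each), and its log2 fold change was 0.12. Type V collagen nucleates fibrils and limits their width. Of its chains, Col5a1 had a log2 fold change of 0.10 and Col5a2 of 0.01, and the sign of both turned in some alternative fits. Col5a3 was low, with 29.2 ± 5.60 in controls and 22.6 ± 2.66 in Osr2-Cre;Ezh2fl/fl molars, a log2 fold change of -0.34 (SE 0.14, unadjusted p = 0.0329, adjusted p = 0.316).

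Col27a1, a fibrillar chain best known from developing cartilage and bone, had 483 ± 55.1 in controls and 381 ± 76.5 in Osr2-Cre;Ezh2fl/fl molars, a log2 fold change of -0.35 (SE 0.14, unadjusted p = 0.0298, adjusted p = 0.299). Osr2-Cre;Ezh2fl/fl library 3, at 495, was within the control range of 410 to 541, and the other 3 were between 328 and 357. The change was -0.19 with the ameloblast transcripts as a covariate and -0.37 (unadjusted p = 0.0120) without the 3 libraries richest in them. Col24a1, its relative, had 290 ± 66.6 and 266 ± 47.8. Its log2 fold change of -0.11 was -0.0050 without control library 1, -0.26 without control library 4 and -0.31 (unadjusted p = 0.0507) with the covariate.

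In the basement membrane group 7 of 8 chains were tested, none was higher and 4 were lower at an unadjusted p under 0.05, with a median log2 fold change of -0.32. Without Osr2-Cre;Ezh2fl/fl library 1, 2 of these chains were higher and 4 lower, beside 9.23% and 5.34% of all genes. The share of the basement membrane chains in the summed values was 0.152, 0.172, 0.157 and 0.162% in the controls and 0.122, 0.137, 0.0996 and 0.130% in the Osr2-Cre;Ezh2fl/fl libraries, and the groups did not overlap. This is a description of a sum that Col4a1 and Col4a2 dominate. Col4a1 (chr8:11198423-11312826, minus strand) had values of 607, 717, 674 and 726 in controls and 503, 551, 401 and 503 in Osr2-Cre;Ezh2fl/fl libraries. Every one of the latter was below every control, with library 3 the lowest.

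Control molars held 1.39 times as much Col4a1 as Osr2-Cre;Ezh2fl/fl molars by the ratio of means. In limma the log2 fold change was -0.48 (95% confidence interval -0.73 to -0.24), the smallest unadjusted p of the members, 0.00148, with an adjusted p of 0.0623. The exact permutation test gave p = 0.0286, the smallest that 4 samples against 4 allow. Under quantile normalization the adjusted p was 0.0221, and leaving out single libraries gave adjusted p-values between 0.0610 and 0.189.

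Col4a2 (chr8:11312805-11449287, plus strand), read from the other strand of the promoter printed above, had 408, 465, 437 and 482 in controls and 333, 387, 260 and 343 in Osr2-Cre;Ezh2fl/fl libraries. The order of libraries within each group was that of Col4a1, and the groups again did not overlap. The log2 fold change was -0.45 (SE 0.12, unadjusted p = 0.00401, adjusted p = 0.105). Without the 3 libraries rich in ameloblast transcripts, the changes were -0.35 for Col4a1 and -0.30 for Col4a2.

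The remaining type IV chains occur in specialised basement membranes. Col4a5 and Col4a6 had log2 fold changes of 0.24 (SE 0.23) and 0.41 (SE 0.28), with unadjusted p-values of 0.320 and 0.178. Both were lowest among the Osr2-Cre;Ezh2fl/fl libraries in library 1, and without it their changes were 0.45 and 0.64 (unadjusted p = 0.0296 and 0.0259 in limma). They were 0.11 and 0.25 without control library 3, 0.091 and 0.19 with the ameloblast transcripts as a covariate, and 0.00061 and 0.14 without the 3 libraries rich in these transcripts. Col4a4 was low, at 6.39 ± 2.08 in controls and 5.68 ± 1.13 in Osr2-Cre;Ezh2fl/fl molars. Col4a3, which starts 71 bases from Col4a4 on the opposite strand, did not pass the filter of the main fit, with values of 0.762 to 1.81 in controls and 0.724 to 1.10 in the others.

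Col15a1 and Col18a1 are the multiplexins, proteoglycan collagens of the basement membrane zone, and Col18a1 is the source of endostatin. Col15a1 had 44.2, 57.9, 52.8 and 49.5 in controls and 35.7, 46.8, 30.3 and 41.6 in Osr2-Cre;Ezh2fl/fl libraries, a log2 fold change of -0.41 (SE 0.13, unadjusted p = 0.0135, adjusted p = 0.204), which was -0.29 (unadjusted p = 0.112) without the 3 libraries rich in ameloblast transcripts. Col18a1 had 187, 228, 214 and 219 and then 192, 170, 135 and 182, a log2 fold change of -0.33 (SE 0.11, unadjusted p = 0.0178, adjusted p = 0.235), which was -0.18 (unadjusted p = 0.152) without those libraries. In each gene 1 library of each group fell within the other group's range, and Osr2-Cre;Ezh2fl/fl library 3 was the lowest.

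Vessels are a source of these chains. The 8 endothelial markers (Pecam1, Cdh5, Kdr, Tek, Tie1, Emcn, Cldn5 and Egfl7) summed to 405 to 465 in controls and 371 to 418 in Osr2-Cre;Ezh2fl/fl libraries. All 8 had log2 fold changes below 0, 3 of them with an unadjusted p under 0.05 (Pecam1, Cdh5 and Kdr). The median was -0.11, and the range was from -0.31 in Kdr to -0.01. The 7 mural markers (Rgs5, Cspg4, Pdgfrb, Acta2, Myh11, Notch3 and Kcnj8) summed to 506 to 584 and 477 to 557. Of these 7, 5 had log2 fold changes below 0 and 2 above, and 1 was higher and 1 lower at an unadjusted p under 0.05. The part of vessel cells in the lower type IV values was not tested, and in bulk samples fewer cells of a type cannot be told apart from less RNA per cell.

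All 6 FACIT chains were tested, and at an unadjusted p under 0.05, 2 were higher and 1 was lower, with a median log2 fold change of -0.07. This median was -0.0037 without Osr2-Cre;Ezh2fl/fl library 1 and 0.083 with the ameloblast transcripts as a covariate. With that covariate 1 was higher and 2 were lower, beside 8.31% and 6.11% of all genes. Without the 3 libraries rich in these transcripts 0 were higher and 0 lower, beside 4.10% and 2.92%. Col16a1 (chr4:130047840-130099283, plus strand), a fibril-associated chain made by many mesenchymal cells, stood at 230, 240, 157 and 224 in the controls and 263, 539, 428 and 361 in the Osr2-Cre;Ezh2fl/fl libraries. Every Osr2-Cre;Ezh2fl/fl library was above every control, but library 1 exceeded the highest control by a small margin. The mean was 1.87 times that of controls.

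The log2 fold change of Col16a1 was 0.87 (95% confidence interval 0.39 to 1.35), with an unadjusted p of 0.00246, an adjusted p of 0.0806 and an exact permutation p of 0.0286. Without Osr2-Cre;Ezh2fl/fl library 1 it was 1.05, with an adjusted p of 0.0241, and leaving out any single library gave changes of 0.71 to 1.05. Without the 3 libraries rich in ameloblast transcripts it was 0.66.

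Col19a1 is a low-level FACIT chain described in embryonic muscle and brain. Its values were 2.36, 1.61, 0.688 and 0.581 in controls and 0.663, 5.95, 5.67 and 4.56 in Osr2-Cre;Ezh2fl/fl libraries, with 34 to 400 estimated reads per library. Libraries 2 to 4 were above every control, and library 1 was among the lowest of all 8. The log2 fold change was 1.05 (SE 0.45, unadjusted p = 0.0426, adjusted p = 0.351), and without library 1 it was 1.53, with an adjusted p of 0.0248. Leaving out any single other library gave 0.84 to 1.25, and without the 3 libraries rich in ameloblast transcripts the change was 0.43 (unadjusted p = 0.493). Skeletal muscle markers (Myh3, Myh8, Actn2, Ttn, Ckm and Acta1) summed to 5.66 to 39.7 in controls and 3.56 to 9.18 in the others.

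Col19a1 ends 9205 bases from the end of Col9a1, a cartilage chain that the rule leaves out and that is named here after its values were seen. Col9a1 had values of 4.22, 3.66, 2.11 and 2.84 in controls and 8.17, 23.9, 20.6 and 19.0 in Osr2-Cre;Ezh2fl/fl libraries, and it rose with a log2 fold change of 2.10 (adjusted p = 0.00838 in limma). Library 1 was again the lowest of its group, here still above every control. The genes lie tail to tail on opposite strands of chromosome 1 with no overlap. Of the 6 cartilage markers in the table (Col2a1, Col9a1, Col11a2, Acan, Comp and Sox9) 5 were tested, 3 rose (Col2a1, Col9a1 and Acan) and the median log2 fold change was 1.36, while their sum, mostly Col11a2, was 366 to 441 in controls and 326 to 430 in the others. The Schwann cell markers Sox10, Mbp, Erbb3 and Foxd3 summed to 37.1 to 53.2 and 31.6 to 44.9, and 1 of the 2 tested, Erbb3, fell. The part of such cells in the higher Col16a1, Col19a1 and Col25a1 values was not tested.

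The remaining FACIT chains showed smaller differences. Col12a1, which lies on type I fibrils in dense connective tissue, had 1305, 1095, 875 and 1038 in controls and 670, 1353, 923 and 887 in Osr2-Cre;Ezh2fl/fl libraries. The groups overlapped widely, with a log2 fold change of -0.20 (SE 0.20, unadjusted p = 0.346). Without Osr2-Cre;Ezh2fl/fl library 1 this was -0.045, and without library 2 it was -0.38 (unadjusted p = 0.0428). Its relative Col14a1 had 71.6 ± 5.02 and 58.1 ± 10.8, a log2 fold change of -0.31 (SE 0.13, unadjusted p = 0.0386, adjusted p = 0.339), which was -0.18 (unadjusted p = 0.0579) without Osr2-Cre;Ezh2fl/fl library 3 and -0.20 (unadjusted p = 0.0959) without the libraries rich in ameloblast transcripts. Col22a1, known from tissue junctions, had 276 ± 24.9 and 231 ± 36.1, with a log2 fold change of -0.26 (unadjusted p = 0.0585). This was -0.14 without Osr2-Cre;Ezh2fl/fl library 3 and -0.093 (unadjusted p = 0.405) without the libraries rich in ameloblast transcripts. Col20a1 stayed low, at 2.49 ± 0.964 and 2.82 ± 1.69.

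**Figure D4:**
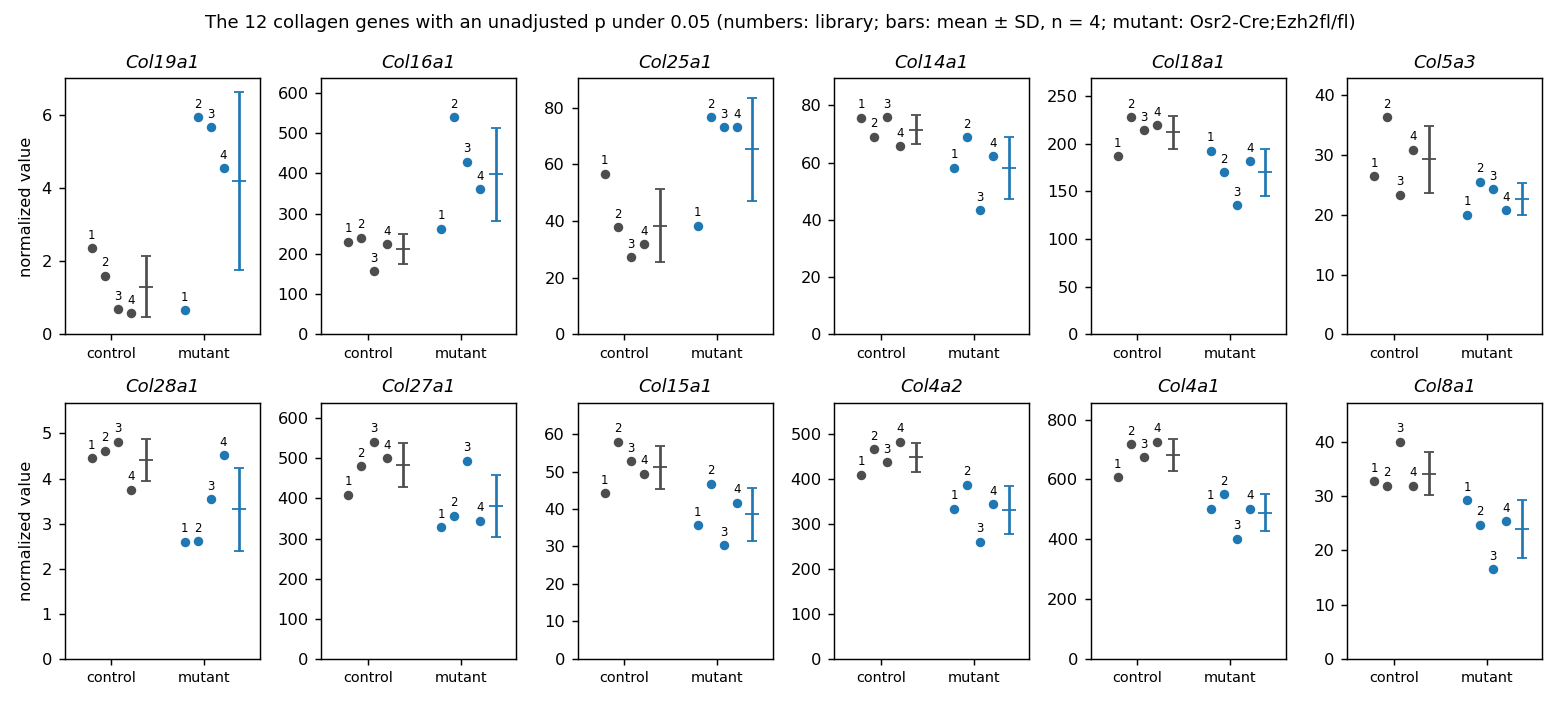
Normalized values (linear axes from 0) of the 12 collagen genes with an unadjusted p under 0.05, with 1 point per library, numbered 1 to 4 in each group, and mean ± SD beside the points. Col4a1, Col4a2, Col8a1 and Col16a1 separate the groups, while Osr2-Cre;Ezh2fl/fl library 1 sits among the controls in Col19a1 (0.663) and Col25a1 (38.3).

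Of the 16 chains of other types 14 were tested, and at an unadjusted p under 0.05, 1 was higher and 2 were lower, with a median log2 fold change of -0.02. This median was 0.057 without Osr2-Cre;Ezh2fl/fl library 1 and -0.18 with the ameloblast transcripts as a covariate. Without the 3 libraries rich in these transcripts it was 0.019. Type VI collagen forms beaded filaments around cells from the products of Col6a1, Col6a2 and Col6a3. Col6a1 had 332, 315, 263 and 299 in controls and 265, 490, 261 and 372 in Osr2-Cre;Ezh2fl/fl libraries, with a log2 fold change of 0.15 (SE 0.19). In the latter group 2 libraries were above all controls and library 3 was just below them. Col6a2 and Col6a3 had log2 fold changes of -0.01 and -0.04, with signs that turned between fits.

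The later chains of type VI were rare in this tissue. Col6a4 had 2.06 ± 0.593 in controls and 1.57 ± 0.361 in Osr2-Cre;Ezh2fl/fl molars, and Col6a6 was at 0.121 to 0.361 in all libraries and was not tested. Col6a5 had 0.191, 4.06, 3.82 and 3.32 in controls and 0.493, 0.243, 3.49 and 0.323 in Osr2-Cre;Ezh2fl/fl libraries, with 10 to 302 estimated reads. It was thus present in 3 control libraries and 1 Osr2-Cre;Ezh2fl/fl library and near its floor in the other 4, and the log2 fold change of -0.88 (SE 0.53) had an unadjusted p of 0.134. With the ameloblast transcripts as a covariate this change was -0.20, and without control library 1, the low control, it was -1.37 (unadjusted p = 0.00834).

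Type VIII collagen is a short-chain network-forming collagen of vessels and of the cornea's basement membrane. Col8a1 (chr16:57624258-57754737, minus strand) had 32.7, 32.0, 40.0 and 31.9 in controls and 29.2, 24.7, 16.5 and 25.4 in Osr2-Cre;Ezh2fl/fl libraries. No library of the latter group reached the lowest control, and library 3 was lowest. The log2 fold change was -0.52 (95% confidence interval -0.87 to -0.16, unadjusted p = 0.00937, adjusted p = 0.166). Without the 3 libraries rich in ameloblast transcripts, among them control library 3, it was -0.28 (unadjusted p = 0.0328). Its partner Col8a2 had 189 ± 28.7 and 263 ± 86.0, a log2 fold change of 0.42 (SE 0.22, unadjusted p = 0.0904), with libraries 2 to 4 above every control and library 1 just below them. Without library 1 it was 0.64 (unadjusted p = 0.00386), and without library 2 it was 0.25 (unadjusted p = 0.248).

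The transmembrane collagens span the plasma membrane. Col25a1, known from neurons and from muscle innervation, had 56.6, 37.8, 27.2 and 31.9 in controls and 38.3, 76.5, 73.1 and 73.1 in Osr2-Cre;Ezh2fl/fl libraries. Libraries 2 to 4 were above every control and library 1 was not, and the log2 fold change was 0.75 (SE 0.26, unadjusted p = 0.0177, adjusted p = 0.234). Without library 1 it was 0.99, with an adjusted p of 0.0554. Without control library 3 it was 0.61 and without Osr2-Cre;Ezh2fl/fl library 3 it was 0.68 (unadjusted p = 0.0521 in both), and without the 3 libraries rich in ameloblast transcripts it was 0.36 (unadjusted p = 0.311).

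Col23a1 had 438, 373, 297 and 325 in controls and 234, 437, 325 and 323 in Osr2-Cre;Ezh2fl/fl libraries. Library 1 was below the lowest control and the other 3 were within the control range, and the log2 fold change of -0.14 (SE 0.18) became 0.015 without library 1. Col17a1, the hemidesmosomal collagen of basal epithelial cells, had 386 ± 66.3 and 313 ± 35.5, a log2 fold change of -0.29 (unadjusted p = 0.0580). The 7 epithelial markers had log2 fold changes below 0 as well, 2 of them with an unadjusted p under 0.05, and without the libraries rich in ameloblast transcripts the change of Col17a1 was -0.09. Col13a1 had 15.1 ± 6.12 and 17.0 ± 5.86.

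The last members form other assemblies. Col7a1, the anchoring fibril chain under epithelium, had 196 ± 17.9 in controls and 206 ± 39.6 in Osr2-Cre;Ezh2fl/fl molars. Col26a1 had 77.0 ± 11.4 and 82.6 ± 9.18. Col28a1, a chain with von Willebrand A domains, had 4.41 ± 0.464 and 3.31 ± 0.914, a log2 fold change of -0.34 (unadjusted p = 0.0461, adjusted p = 0.364). Col10a1, the marker of hypertrophic cartilage, was at 0.398 to 0.758 in all libraries and was not tested.

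Ratios of partner chains within a library do not depend on scaling between libraries. Of 9 pairs planned, 8 were computed, leaving out Col4a3/Col4a4, and each was tested with a two-sided exact permutation test. The Col4a1/Col4a2 ratio was the steadiest: the log2 ratio had an SD of 0.042 over the 8 libraries, while each chain alone had an SD near 0.30 (0.298 and 0.295). It was 0.60 ± 0.027 in controls and 0.57 ± 0.052 in Osr2-Cre;Ezh2fl/fl libraries, a difference of -0.03 (exact permutation p = 0.371).

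For 2 ratios the groups did not overlap. Col3a1 relative to Col1a1 was 0.225, 0.207, 0.206 and 0.242 in controls and 0.250, 0.289, 0.281 and 0.286 in Osr2-Cre;Ezh2fl/fl libraries, on the (value + 1) scale. The difference of the log2 ratios was 0.33 (exact permutation p = 0.0286, 0.114 after Benjamini-Hochberg adjustment over the 8 pairs). Col6a1 relative to Col6a2 was higher by 0.16 on the log2 scale, with the same p-values, although neither gene by itself separated the groups.

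Between the remaining pairs no ratio separated the groups. Col8a1/Col8a2 had the widest difference, -0.94 on the log2 scale (exact permutation p = 0.0857, adjusted p = 0.171), and its value in Osr2-Cre;Ezh2fl/fl library 1, -2.40, was within the controls' -2.74 to -1.98 while the other 3 were between -3.82 and -3.49. Col4a5/Col4a6 differed by -0.17 (exact permutation p = 0.0857), Col6a3/Col6a1 by -0.19 (exact permutation p = 0.114), Col1a1/Col1a2 by 0.08 (exact permutation p = 0.543) and Col5a1/Col5a2 by 0.09 (exact permutation p = 0.600).

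**Figure D5:**
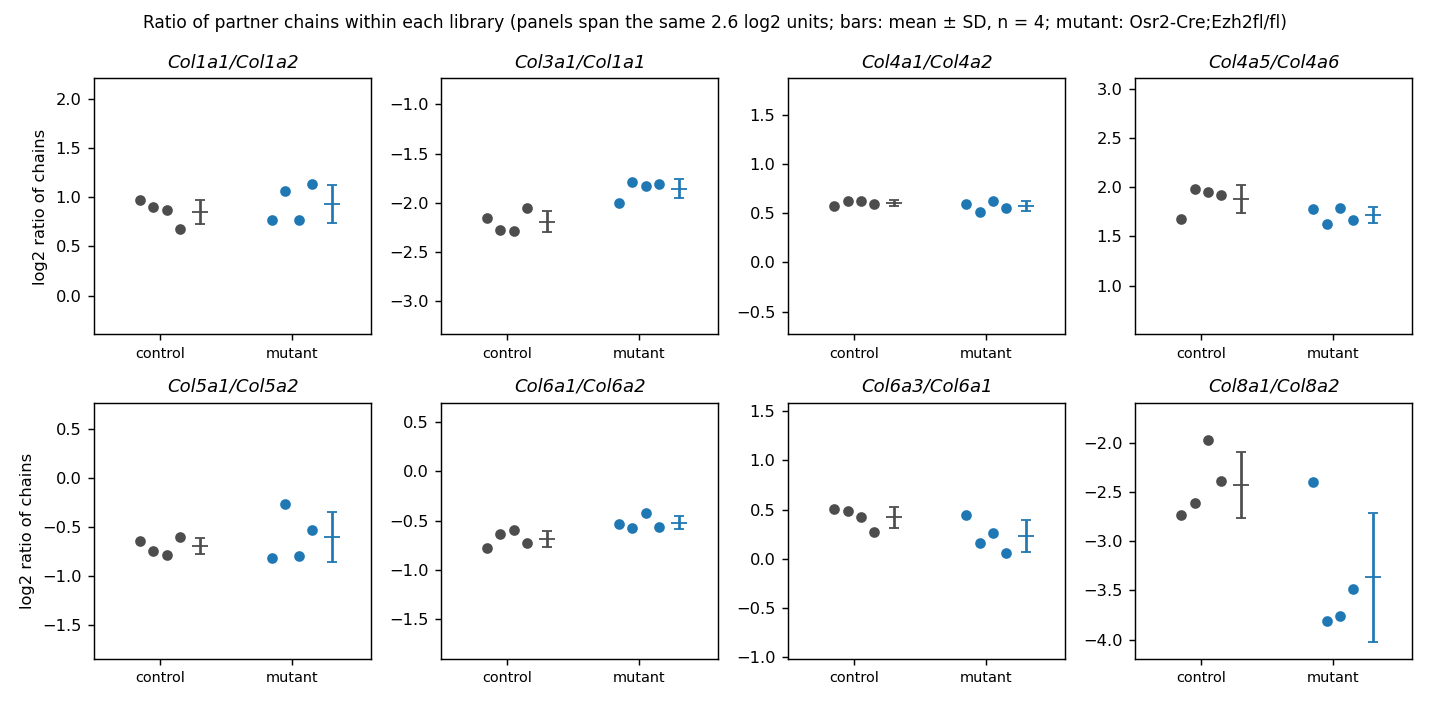
Log2 ratio of (value + 1) between partner chains in each library, with mean ± SD; all panels span the same number of log2 units. Col4a1/Col4a2 lies within 0.51 to 0.63 in all 8 libraries, Col3a1/Col1a1 and Col6a1/Col6a2 are higher in each Osr2-Cre;Ezh2fl/fl library than in each control, and Col8a1/Col8a2 is lower in 3 of 4.

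Lists of genes that make, trim, crosslink and bind collagen were taken through the same test. Their shares with an unadjusted p under 0.05 in either direction were 8.70% for modification in the ER, 21.4% for trimming and crosslinking, 22.2% for receptors and 3 genes of 15 for basement membrane partners, beside 13.1% of all genes tested. Among 23 genes of chain modification in the ER, such as prolyl and lysyl hydroxylases and the chaperone Serpinh1, none had an adjusted p under 0.05 in limma, and at an unadjusted p under 0.05, 1 was higher and 1 was lower, with a median log2 fold change of -0.04. These were P3h3 (log2 fold change 0.20) and P3h2 (-0.67, unadjusted p = 0.0160), both prolyl 3-hydroxylases. P3h2, which acts on basement membrane collagen, had 38.7, 32.9, 32.2 and 26.4 in controls and 16.0, 30.7, 13.6 and 23.4 in Osr2-Cre;Ezh2fl/fl libraries, and only library 2 was within the control range.

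Of 15 genes for trimming and crosslinking, 14 were tested, none had an adjusted p under 0.05 in limma, and 1 was higher and 2 were lower at an unadjusted p under 0.05, with a median of -0.17. The procollagen C-proteinase Bmp1 had a log2 fold change of 0.22 (unadjusted p = 0.0167), and its relative Tll1 one of -0.46 (unadjusted p = 0.00238, adjusted p = 0.0800). Among 15 laminins, nidogens and other basement membrane partners, 1 was higher (Nid2, 0.52) and 2 were lower (Lama5, -0.24, and Lamb3, -0.73) at an unadjusted p under 0.05, and none had an adjusted p under 0.05.

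Of the 10 collagen receptors on the list 9 were tested, with a median log2 fold change of -0.03, and 1 fell (11.1%, beside 0.512% of all genes as lower). Itga2, the collagen-binding integrin chain alpha 2, had values of 44.8, 51.1, 50.7 and 46.6 in controls and 31.0, 35.6, 40.7 and 36.0 in Osr2-Cre;Ezh2fl/fl libraries, with no overlap. Its log2 fold change was -0.43 (SE 0.09, adjusted p = 0.0481 in limma), and the adjusted p exceeded 0.05 when any of 7 of the 8 libraries was left out, reaching 0.184. Itga1, the chain that binds type IV collagen, had 22.4, 23.1, 22.4 and 27.5 and then 12.9, 17.1, 16.9 and 17.9, also without overlap, with a log2 fold change of -0.53 and an adjusted p of 0.0535.

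Mineralizing cells make much of the type I collagen of a tooth. The bone markers (Sp7, Ibsp, Bglap, Bglap2, Dmp1 and Phex) summed to 452 to 613 in controls and 630 to 815 in Osr2-Cre;Ezh2fl/fl libraries, a separation carried by Ibsp, which was the 1 of 6 with an adjusted p under 0.05, and 4 of the 6 had log2 fold changes below 0. The odontoblast markers (Dspp, Dmp1, Phex and Nes) summed to 1945 to 3394 in controls and 1082 to 2738 in the others, and all 4 had log2 fold changes below 0. Their part in the type I values was not tested.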

How the data were processed

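The labels put 4 libraries in each group. The deposited table holds a normalized signal per gene and library. Per the methods of the study, single-end reads were trimmed, mapped to mm10 with TopHat and normalized by RPKM, while the submitters' processing notes name CASAVA 1.8.2, STAR 2.5.3a and Partek. The values carry no length factor and are never 0, and 61.2% of low values are whole multiples of the library's smallest value (tolerance 0.01). Estimated reads are the value divided by that smallest value, minus 1, and carry counting error only.

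Log2(value + 1) was tested with limma 3.58.1 (R 4.3.3, mean-variance trend, checked on simulated data) over 14854 genes at 1 or more in at least 4 libraries, with Benjamini-Hochberg adjustment. This scale understates the change of low genes. Exact permutation tests (scipy 1.17.1) were two-sided over 70 arrangements. Exon lengths and positions are from GENCODE. Strand of the counting is not given in the sources used here, so reads of overlapping exons, as of Col4a1 and Col4a2, cannot be assigned.

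The members and lists were chosen with earlier results of these data known. Values in every library are given for members whose groups did not overlap at an unadjusted p under 0.05 and for the 2 of highest level per kb in each kind of assembly. For Col15a1, Col18a1, Col19a1, Col25a1, Col6a5, P3h2 and Itga1 they were added after the values were seen. From the other lists, genes past the adjusted threshold or of the smallest p in each direction are named, and Lamb3 was added. Some genes of the epithelial and Schwann cell marker lists are not reported here, and the sums leave them out. Alternatives were other pseudocounts, filters, scalings and variance models, limma voom on estimated reads, Xist or enamel transcripts as covariates, the replicate block, and each library left out.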

Additional observations from a re-analysis of the deposited data

Results flagged for a closer look

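In 7 of 94 groups of 4 libraries examined (both groups for each of the 38 members, the 8 chain ratios and the collagen share), 1 library stood far from the other 3 on the log2(value + 1) scale, where chance gives about 4.7, that is, 1 in 20. Osr2-Cre;Ezh2fl/fl library 1 was low for Col19a1, at 0.663 against 4.56 to 5.95, and for Col25a1, at 38.3 against 73.1 to 76.5. Control library 3 was low for Col16a1, at 157 against 224 to 240, and high for Col8a1, at 40.0 against 31.9 to 32.7. Control library 1 was low for Col20a1, at 1.06 against 2.75 to 3.16. Col6a5 was flagged in both groups, with 0.191 in control library 1 against 3.32 to 4.06 and 3.49 in Osr2-Cre;Ezh2fl/fl library 3 against 0.243 to 0.493.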

How the results depend on the processing

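The direction and the side of the adjusted threshold were kept in 693 of 724 refits of the 35 members, 28 turned in sign, all in members with an unadjusted p above 0.05, and 3 passed the threshold, as given for Col16a1, Col19a1 and Col4a1. Leaving out 1 library gave log2 fold changes of -0.10 to 0.40 for Col13a1, -0.19 to 0.37 for Col20a1, -0.28 to 0.015 for Col23a1, -0.016 to 0.21 for Col3a1, -0.29 to 0.040 for Col4a4, -0.084 to 0.20 for Col5a1, -0.064 to 0.050 for Col5a2, -0.029 to 0.27 for Col6a1, -0.21 to 0.14 for Col6a2, -0.19 to 0.077 for Col6a3 and -0.062 to 0.13 for Col7a1. It gave 0.014 to 0.18 for Col26a1 and -0.35 to -0.13 for Col6a4, with no turn in sign. With enamel transcripts as a covariate the sign turned for Col5a1 (-0.044), Col5a2 (-0.075) and Col6a1 (-0.0079). For Col5a2 it also turned under median-of-ratios scaling (-0.017), under quantile normalization (-0.023) and without the 3 libraries rich in ameloblast transcripts (-0.048), and for Col6a2 under quantile normalization (0.021) and without those libraries (0.019). Members past the adjusted threshold numbered 0 to 2 as higher and 0 as lower with 1 library left out, and 1 was lower under quantile normalization. At an unadjusted p under 0.05, 1 to 6 were higher and 4 to 10 lower with 1 library left out, 1 was higher with the enamel covariate and 0 without the 3 libraries. Receptors past the adjusted threshold numbered 0 to 1 as lower with 1 library left out. They were 0 with no filter, a filter at 10, quantile normalization, no trend, the replicate block, the enamel covariate or without the 3 libraries, and 2 with robust moderation. Genes of ER modification past it as lower were 1 with the enamel covariate, and those of processing 1 under quantile normalization. The Col5a1/Col5a2 difference was -0.020 to 0.16 with 1 library left out. The cause of these shifts was not tested.

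Both groups number their libraries 1 to 4, but same-numbered libraries had correlations of deviations of -0.34, -0.08, 0.22 and -0.43, and neither the labels nor the methods, which mention 3 unidentified pairs, tie them to each other, so they were not treated as pairs. With the replicate block, 0 members passed the adjusted threshold, and 2 were higher and 8 lower at an unadjusted p under 0.05. Over all genes it left 64 higher and 9 lower calls, against 232 and 76 without it. Depth limits Col6a4, Col6a5, Col6a6, Col10a1 and Col4a3, with at most 302 estimated reads in a library, and Col19a1, Col20a1 and Col28a1, with at most 400.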
